A study of Mus musculus with 6 samples.

Results

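Day 4 skin wounds were set against day 1 skin wounds over all measured genes, using 4 of the 6 arrays of the study, the 2 titled as 4-day wounds and the 2 titled as 1-day wounds. The other 2 arrays held unwounded skin and serve here as the level without injury. All mice were BALB/c males, an inbred albino strain, aged 5 to 6 weeks. A 4 mm punch had been pushed through the shaved, anaesthetised back skin as far as the fascia, at a site on either side of the midline, and an 8 mm punch later collected the wound with a ring of neighbouring skin. No drug, transgene or deletion entered the design. The labels describe the arrays of a group as biological replicates numbered 1 and 2. Whether an array held RNA of a single mouse, of a pool or of both wounds of a mouse is not stated, so p-values measure only the spread between these arrays.

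Repair of skin runs through overlapping phases. Blood neutrophils enter soon after injury, drawn by CXC chemokines, and monocytes follow and become macrophages. Later, keratinocytes spread and divide at the wound edge while fibroblasts replace the clot with collagen-rich granulation tissue. In the mouse a sheet of striated muscle, the panniculus carnosus, lies under the dermis and is part of full-thickness back skin.

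Levels are log2 intensities as deposited, so a difference of 1 is a 2-fold change, and where a pair of values is given replicate 1 stands before replicate 2. The medians of the 6 arrays lay between 6.89 and 6.93. The epidermal keratins Krt5, Krt14, Krt1 and Krt10 and the dermal collagens Col1a1 and Col3a1, which define skin, lay between 10.86 and 12.83 on the 4 wound arrays, above every array's upper quartile. A gene below the lower quartile of an array (5.29 to 5.37) had no test against background, so folds against such levels are approximate. This touches Il6, Saa2 and Chil3 on a day 4 array, Myh3, Tmprss11b, Akr1d1, Akr1c14 and Rian on day 1 arrays, and Serpinb3a, Mir377 and Mir382 on all 4 wound arrays.

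Between day 1 and day 4, 217 of 19938 genes rose (1.09%) and 227 fell (1.14%), together 444 (2.23%), by limma's moderated test over all 6 arrays with Benjamini-Hochberg adjustment at a threshold of 0.05. After cyclic loess scaling the split was 195 higher and 310 lower. At least 2-fold changes numbered 30 among the rises and 76 among the falls. The median log2 difference was 0.60 for genes that rose and −0.81 for genes that fell, against 0.01 over all genes, of which the middle 80% lay between −0.235 and 0.245. The median SE of a difference was 0.093. At an unadjusted p under the same threshold 2016 genes (10.1%) were higher and 1749 (8.77%) lower.

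The called effects had the same direction for both replicate numbers, which the test itself required. All 444 called genes had the same sign in the replicate 1 difference and in the replicate 2 difference, and in none did the day 1 and day 4 arrays overlap. Both follow from the calls, since with 2 arrays a group a gene with overlapping groups or opposite signs could not have reached the threshold. They are no separate support for the calls. Over all genes the 2 numbers gave the same sign for 12671 (63.6%), both day 4 arrays lay above both day 1 arrays for 5098 (25.6%), and both lay below for 4396 (22%). Every list count below is to be read beside these shares and the 1.09% of genes that rose and 1.14% that fell. A permutation test of 2 arrays against 2 cannot give a p below 0.333, which is why single genes were tested only with the spread shared over all groups.

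The number of calls rested on every array. With only the 4 wound arrays in the fit 8 genes rose and 9 fell. Leaving out either intact array gives the same test, because a lone intact array adds nothing to the estimated spread. Those alternatives are therefore no evidence beyond the fit of the wound arrays alone. Without day 1 replicate 1 the counts were 24 and 50, without day 1 replicate 2 they were 4 and 11, without day 4 replicate 1 they were 9 and 5, and without day 4 replicate 2 they were 67 and 117. A lone array is then assumed to vary like the other groups. All 17 genes called from the wound arrays alone were among the 444. Ly6g, Mmp8, Ccl20, Xirp1, Tarm1, Ch25h, Ifi209, Klhl40 and Slfn1 were lower, and Rptn, Sfrp2, Lrrc17, Actc1, Tmprss11b, Cthrc1, Thrsp and the unnamed transcript 9130409I23Rik were higher. Of the genes named by rule, Ly6g, Mmp8, Ccl20, Lrrc17 and Cthrc1 passed under every one of 15 alternatives, and Tmprss11b under all 14 that kept it.

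**Figure D1:**
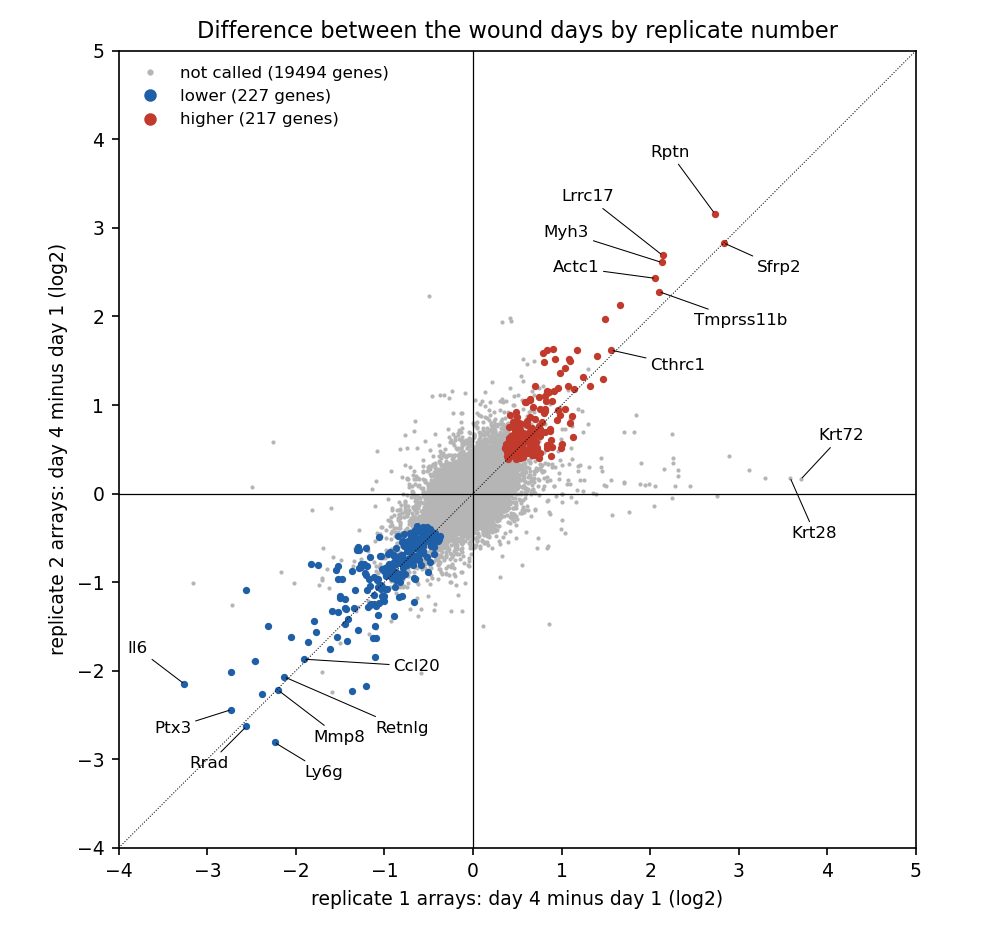
Day 4 minus day 1 log2 difference of the replicate 1 arrays (horizontal axis) against that of the replicate 2 arrays (vertical axis) for 19938 genes, with the 217 called higher in red and the 227 called lower in blue; the dotted line marks equal differences. Called genes lie along the line in both directions, while hair keratins such as Krt72 and Krt28 lie far to the right, at 3.70 and 3.58 for replicate 1 and 0.16 and 0.18 for replicate 2.

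Neutrophil genes were among the steepest falls. Of 21 neutrophil markers measured 7 fell, 1 rose and 13 did not pass, where 1.14% of all genes fell and 1.09% rose, and the median log2 difference was −0.57. Ly6g, a surface protein of mouse neutrophils, had log2 levels of 8.60 and 9.07 on day 1, 6.36 and 6.26 on day 4, and 4.75 and 4.79 in intact skin. Both day 4 arrays lay well below both day 1 arrays and still above intact skin. The mean fell 5.76-fold (log2 difference −2.52, SE 0.15, adjusted p = 0.00485). In whole skin, fewer cells of a type and less RNA per cell cannot be told apart.

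Mmp8, the neutrophil collagenase, stood at 10.47 and 10.74 on day 1, 8.27 and 8.52 on day 4, and 4.60 and 4.45 in intact skin. The groups did not overlap, and the fall was 4.63-fold (−2.21, SE 0.13, adjusted p = 0.00485), almost equal for the replicate numbers at −2.20 and −2.22. Retnlg, a resistin-like protein of myeloid cells, went from 11.42 and 11.81 to 9.29 and 9.74, with 5.65 and 5.46 in intact skin. Here too both day 4 arrays were low against day 1 and high against intact skin (4.29-fold lower than on day 1, adjusted p = 0.0125). Lcn2, which binds bacterial siderophores (2.49-fold), the G-CSF receptor gene Csf3r (2.14-fold, not passing after quantile normalization with adjusted p = 0.0542), Cd177 (2.14-fold) and the lectin receptor gene Clec4e (1.93-fold) also fell. S100a8 and S100a9, the abundant calcium-binding proteins of neutrophils, differed by −0.47 each and did not pass (adjusted p = 0.189 and 0.198).

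Stfa3, a stefin protease inhibitor that stands both in the neutrophil and in the wound-edge keratinocyte list, went the other way. It had 9.39 and 9.71 on day 1, 10.86 and 11.00 on day 4, and 5.72 and 5.89 in intact skin. Day 4 was highest on both arrays, 2.60-fold above day 1 (adjusted p = 0.0128). The count of 7 neutrophil falls was 2 with the wound arrays alone and between 2 and 5 with a wound or intact array left out. The list median was −0.315 without day 1 replicate 2 and −0.82 without day 1 replicate 1.

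**Figure D2:**
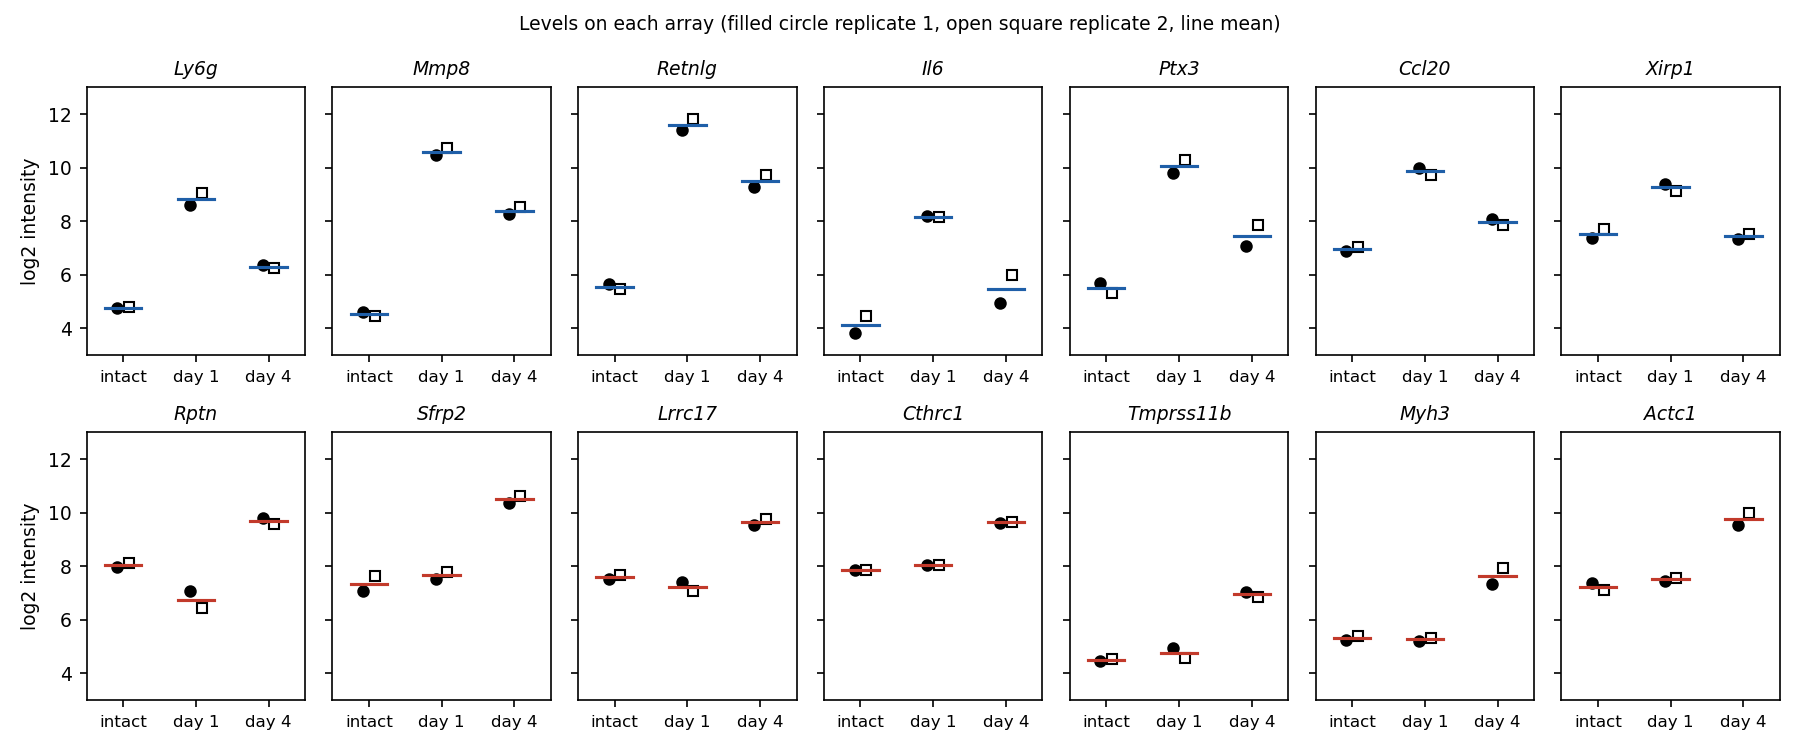
Log2 intensity (vertical axis) of 14 genes on each array, grouped as intact, day 1 and day 4, with a filled circle for replicate 1, an open square for replicate 2 and a line at the mean. The upper 7 genes peak on day 1, and all but Xirp1 stay above intact skin on day 4; the lower 7 genes are highest on day 4, and Rptn and Lrrc17 are lower on day 1 than in intact skin.

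The chemokines that attract neutrophils were lower as well. Of 8 genes of this group 2 fell, none rose and 6 did not pass, and the median difference was −1.03. Cxcl5 fell 3.41-fold, from 9.04 and 9.60 to 7.18 and 7.92, against 4.98 and 4.94 in intact skin (adjusted p = 0.0368). Both day 4 arrays lay under both day 1 arrays and over both intact arrays. Cxcl1 fell 2.09-fold, from 9.27 and 9.25 to 8.10 and 8.29 (adjusted p = 0.0369). Cxcl3 (−1.19, adjusted p = 0.0608) and the receptor gene Cxcr2 (−0.99, adjusted p = 0.104) had differences of like size but did not pass. Cxcl2 stood at 11.55 and 11.92 on day 1 and at 11.42 and 11.56 on day 4, where the groups overlapped. With the wound arrays alone neither Cxcl5 nor Cxcl1 passed.

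Monocyte and lymphocyte chemokines were mixed. Among 29 measured genes 5 fell, 1 rose and 23 did not pass, with a median of −0.51. Ccl20, the ligand of CCR6, went from 10.01 and 9.72 to 8.10 and 7.85, with 6.89 and 7.03 in intact skin. Day 4 was lower on both arrays by nearly the same amount (−1.91 and −1.87), a 3.71-fold fall (SE 0.13, adjusted p = 0.00816). Ccl5, a T cell and monocyte attractant, went from 10.86 and 10.00 to 8.30 and 8.91, a 3.54-fold fall (adjusted p = 0.0446) in which replicate 1 moved more than replicate 2 (−2.56 and −1.09). Ccl5 did not pass with a robust prior (adjusted p = 0.0601). The monocyte attractant Ccl2 fell 2.37-fold (adjusted p = 0.0486, or 0.0564 after quantile normalization), its relative Ccl12 1.89-fold and the eosinophil attractant Ccl11 1.78-fold. Ccl22, a chemokine of dendritic cells and macrophages, rose from 6.05 and 5.86 to 6.64 and 6.89, above 5.90 and 5.81 in intact skin (1.75-fold, adjusted p = 0.0338). The 5 falls became 1 with the wound arrays alone.

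Among 22 inflammatory cytokines 2 fell and none rose (median −0.28). Il6 had log2 levels of 8.21 and 8.15 on day 1, 4.95 and 6.00 on day 4, and 3.82 and 4.46 in intact skin. The day 1 arrays were alike and high, and the day 4 arrays were low and further apart, so that the fall was 6.52-fold (−2.71, SE 0.35, adjusted p = 0.0291). Il1a fell 1.45-fold (adjusted p = 0.0428). Il1b and Tnf, central cytokines of innate inflammation, did not pass. Il1b had 11.58 and 11.77 on day 1 and 11.26 and 11.49 on day 4, against 6.03 and 6.37 in intact skin, and Tnf had 8.52 and 8.54 on day 1 and 8.48 and 8.81 on day 4. Both stood far above intact skin on both days. Among 16 prostaglandin and effector enzymes 1 fell, the inducible nitric oxide synthase gene Nos2, from 9.41 and 9.99 to 7.99 and 8.32 (2.92-fold, adjusted p = 0.0291), while the cyclooxygenase gene Ptgs2 differed by −0.14 with overlapping groups.

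Several of these genes carry an NF-kB element (GGGA and TTTCC with any 1 base between them) shortly before their start site, and the windows show that the same letters went with different changes. The promoter windows, taken from RefSeq (GRCm38.p6), run from 250 bases before to 50 after the start, and a match on either strand was counted, with each motif searched on its own. It was found in 3 of 7 windows (42.9%) of the neutrophil chemokine list, 2 of 18 (11.1%) of the cytokine list, 1 of 21 (4.76%) of the feedback inhibitor list, 0 of 20 of the monocyte and lymphocyte chemokine list and 0.411% of all 32851 windows. The matches are shown 5′ to 3′ on the gene's strand with the element in capitals, and a match is a description of the letters, not of binding.
Il6, chr5:30013058-30013091, plus strand: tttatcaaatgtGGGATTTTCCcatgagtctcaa
Cxcl1, chr5:90891162-90891195, plus strand: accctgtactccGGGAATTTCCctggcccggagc
Cxcl3, chr5:90786016-90786049, plus strand: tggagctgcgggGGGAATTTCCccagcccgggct
Cxcl2, chr5:90903790-90903823, plus strand: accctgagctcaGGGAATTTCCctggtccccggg
The element reads the same in the 3 Cxcl genes, whose differences between the days were −1.06 (Cxcl1), −1.19 (Cxcl3) and −0.24 (Cxcl2), and only that of Cxcl1 passed.

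Genes listed here as feedback inhibitors of inflammation were lower too, and what each member does in these wounds was not tested. Of 20 genes of this list 6 fell, none rose and 14 did not pass, and all 20 differences were negative (median −0.62). Socs3, an inhibitor of JAK-STAT signalling, went from 9.90 and 10.08 to 8.45 and 8.79, against 7.24 on both intact arrays. The day 4 arrays lay between the other groups with no overlap (2.58-fold lower than on day 1, adjusted p = 0.0128). Bcl3, an atypical member of the IkB family, fell 2.04-fold (adjusted p = 0.0156). Il1rn, the decoy ligand of the interleukin 1 receptor, fell 1.69-fold, the ubiquitin-editing enzyme gene Tnfaip3 1.61-fold its partner Tnip1 1.53-fold and the nuclear IkB protein gene Nfkbiz 1.44-fold. No member passed with the wound arrays alone, and between 0 and 5 passed with an array left out.

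Soluble and acute phase proteins outside these lists were also among the largest falls. Ptx3, a long pentraxin, went from 9.80 and 10.30 to 7.07 and 7.86, with 5.70 and 5.34 in intact skin (6.00-fold lower, adjusted p = 0.022). Saa2, an acute phase serum amyloid, went from 7.31 and 8.16 to 4.93 and 5.90, with 5.05 and 4.56 in intact skin (4.99-fold lower, adjusted p = 0.0446, or 0.0896 with a robust prior). Both genes were high on both day 1 arrays, and on day 4 the replicate 1 array of Saa2 lay within the range of intact skin. The metal-binding metallothionein gene Mt1 fell 2.49-fold, from 12.70 and 12.83 to 11.26 and 11.64, and the metalloreductase gene Steap4 fell 2.08-fold. They were the 2 that passed among 27 genes of heme, iron and antioxidant metabolism. Of 25 hypoxia and glycolysis genes 24 differences were negative but only Ndrg1 fell (1.53-fold), and of 24 immediate early genes Fos (1.51-fold) and Egr1 (1.39-fold) fell. Fos stayed above intact skin (6.98 and 6.96) at 8.01 and 8.22 on day 4, while Egr1, at 9.43 and 9.42, lay below its intact values of 9.86 and 9.83.

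Interferon-stimulated genes were lower on day 4 on every array. Of 29 measured, 8 fell, none rose and 21 did not pass, and in all 29 both day 4 arrays lay below both day 1 arrays, where 22% of all genes did so. The median difference was −0.63, and the median above intact skin was 2.70 on day 1 and 1.72 on day 4. Ifi205, a nucleic acid sensor of the p200 family, went from 11.88 and 11.80 to 10.87 and 10.93, with 9.44 and 9.42 in intact skin. The 3 groups were far apart against their spread (1.92-fold lower than on day 1, SE 0.07 on the log2 scale, adjusted p = 0.0107). Ifi214, of the same family but outside the list, fell 4.52-fold, from 9.44 and 8.91 to 6.98 and 7.02 (adjusted p = 0.0125).

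Of the antiviral oligoadenylate synthetase family, Oas3 fell 2.09-fold, from 9.41 and 9.19 to 8.20 and 8.27, against 6.75 and 6.29 in intact skin (adjusted p = 0.0361). Oasl1 fell 2.07-fold (adjusted p = 0.0197) and Oas2 1.49-fold (adjusted p = 0.0232). All 3 remained above intact skin on both day 4 arrays. Zbp1, a sensor of Z-form nucleic acids, fell 1.85-fold, Cmpk2 1.95-fold, Usp18, a negative regulator of the interferon receptor, 1.71-fold and Rtp4 1.53-fold. Widely used markers of the response had negative differences that did not pass, Ifit1 at −0.68 (adjusted p = 0.0539), Rsad2 at −0.76 (adjusted p = 0.0595) and Irf7 at −0.74 (adjusted p = 0.074). No member passed with the wound arrays alone, and 0 to 4 passed with an array left out.

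The windows of this list often held the interferon-stimulated response element, searched on both strands as a pair of TTTC with any 2 bases between them. It was found in 12 of 26 windows (46.2%) against 3.44% of all windows. The sites of 2 genes that fell and 2 that did not pass are shown to let the letters be compared, with the element in capitals and on the opposite strand in Ifi205 and Oas3.
Ifi205, chr1:174031868-174031901, minus strand: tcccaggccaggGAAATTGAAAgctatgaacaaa
Oas3, chr5:120777713-120777746, minus strand: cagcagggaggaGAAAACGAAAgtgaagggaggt
Ifit1, chr19:34640773-34640806, plus strand: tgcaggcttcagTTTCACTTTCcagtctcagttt
Rsad2, chr12:26456551-26456584, minus strand: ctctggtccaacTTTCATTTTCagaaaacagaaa
These 4 genes differed by −0.94, −1.06, −0.68 and −0.76 between the days.

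Macrophage genes did not move as a block. Of 21 monocyte and macrophage markers 2 rose, 1 fell and 18 did not pass (median −0.05). C1qa and C1qc encode chains of complement C1q, made in tissue mainly by macrophages. C1qa had 8.91 and 9.14 on day 1, 10.04 and 9.78 on day 4, and 7.92 and 7.99 in intact skin, so the groups rose in steps without overlap (1.85-fold over day 1, adjusted p = 0.0305). C1qc rose 1.49-fold (adjusted p = 0.048, but 0.0604 after median centring), and C1qb, at 0.42, did not pass (adjusted p = 0.0669). Cd14, the lipopolysaccharide co-receptor of monocytes, fell 2.09-fold, from 10.97 and 11.27 to 9.90 and 10.21, with 6.22 and 6.55 in intact skin (adjusted p = 0.0389). The receptor gene Csf1r (0.49, adjusted p = 0.0601), Adgre1 (0.66, adjusted p = 0.202) and Cd68 (−0.24, adjusted p = 0.624) did not pass.

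Of 24 macrophage genes known from repair 1 rose and 1 fell. Fabp5, a fatty acid-binding protein, rose from 11.59 and 11.49 to 12.27 and 12.18 (1.61-fold, adjusted p = 0.0223). Which cells of the whole skin held the added Fabp5 RNA was not tested, so its rise cannot be assigned to macrophages. Chil3, a chitinase-like protein of alternatively activated macrophages that neutrophils also carry, fell from 6.70 and 7.40 to 5.33 and 5.17, with 4.50 and 4.48 in intact skin (3.48-fold, adjusted p = 0.0232). The lipid receptor gene Trem2 differed by 0.60 and did not pass (adjusted p = 0.0574). Arg1, Mrc1 and Retnla, commonly used marks of that state, had overlapping groups and differences of −0.15, 0.06 and −0.23. With the wound arrays alone none of the macrophage genes passed.

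Genes of cell division were higher on day 4. Of 35 mitosis genes 16 rose, none fell and 19 did not pass, and in all 35 both day 4 arrays lay above both day 1 arrays, where 25.6% of all genes did so. The median difference was 0.45, from 0.36 below intact skin on day 1 (−0.36) to 0.07 above it on day 4. Prc1, which bundles microtubules of the dividing spindle, had 7.23 and 7.28 on day 1, 7.93 and 7.94 on day 4, and 7.35 and 7.40 in intact skin. Day 4 was highest on both arrays (1.60-fold over day 1, adjusted p = 0.0181). Cdk1, the kinase that drives entry into mitosis, had 9.15 and 9.03, then 9.89 and 9.70, with 9.48 and 9.55 in intact skin, so day 1 lay below and day 4 above the unwounded level (1.63-fold, adjusted p = 0.0301).

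Bub1, of the spindle checkpoint, rose 1.71-fold (adjusted p = 0.0223), its partner Mad2l1 1.53-fold and Ect2, an activator of cytokinesis, 1.48-fold. Mki67, the proliferation marker, had 9.17 and 8.92 on day 1 and 9.64 and 9.61 on day 4, which lay next to the intact values of 9.73 and 9.64 (1.49-fold over day 1, adjusted p = 0.0478, and 0.0521 to 0.0636 under the 3 scalings, where it did not pass). The other rises, between 1.38-fold (the centromere histone gene Cenpa) and 1.56-fold (the checkpoint kinase gene Bub1b), were those of the cyclin gene Ccnb2, the mitotic motor genes Kif11, Kif20a, Kif23 and Cenpe, the kinetochore gene Spc25 and the cytokinesis and spindle genes Anln and Nusap1. Top2a did not pass (0.39, adjusted p = 0.0638). Of 33 DNA replication genes 2 rose, the helicase subunits Mcm6 (1.46-fold) and Mcm2 (1.42-fold), and none fell. Day 4 lay wholly above day 1 in 24 of them (median 0.21), where 25.6% of all genes did so. Pcna and Rrm2 did not pass. The 16 mitosis rises were 11 after quantile normalization or cyclic loess, 1 without day 4 replicate 2, and 0 with the wound arrays alone or without any other single array, while the median difference lay between 0.42 and 0.495 under every alternative.

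**Figure D3:**
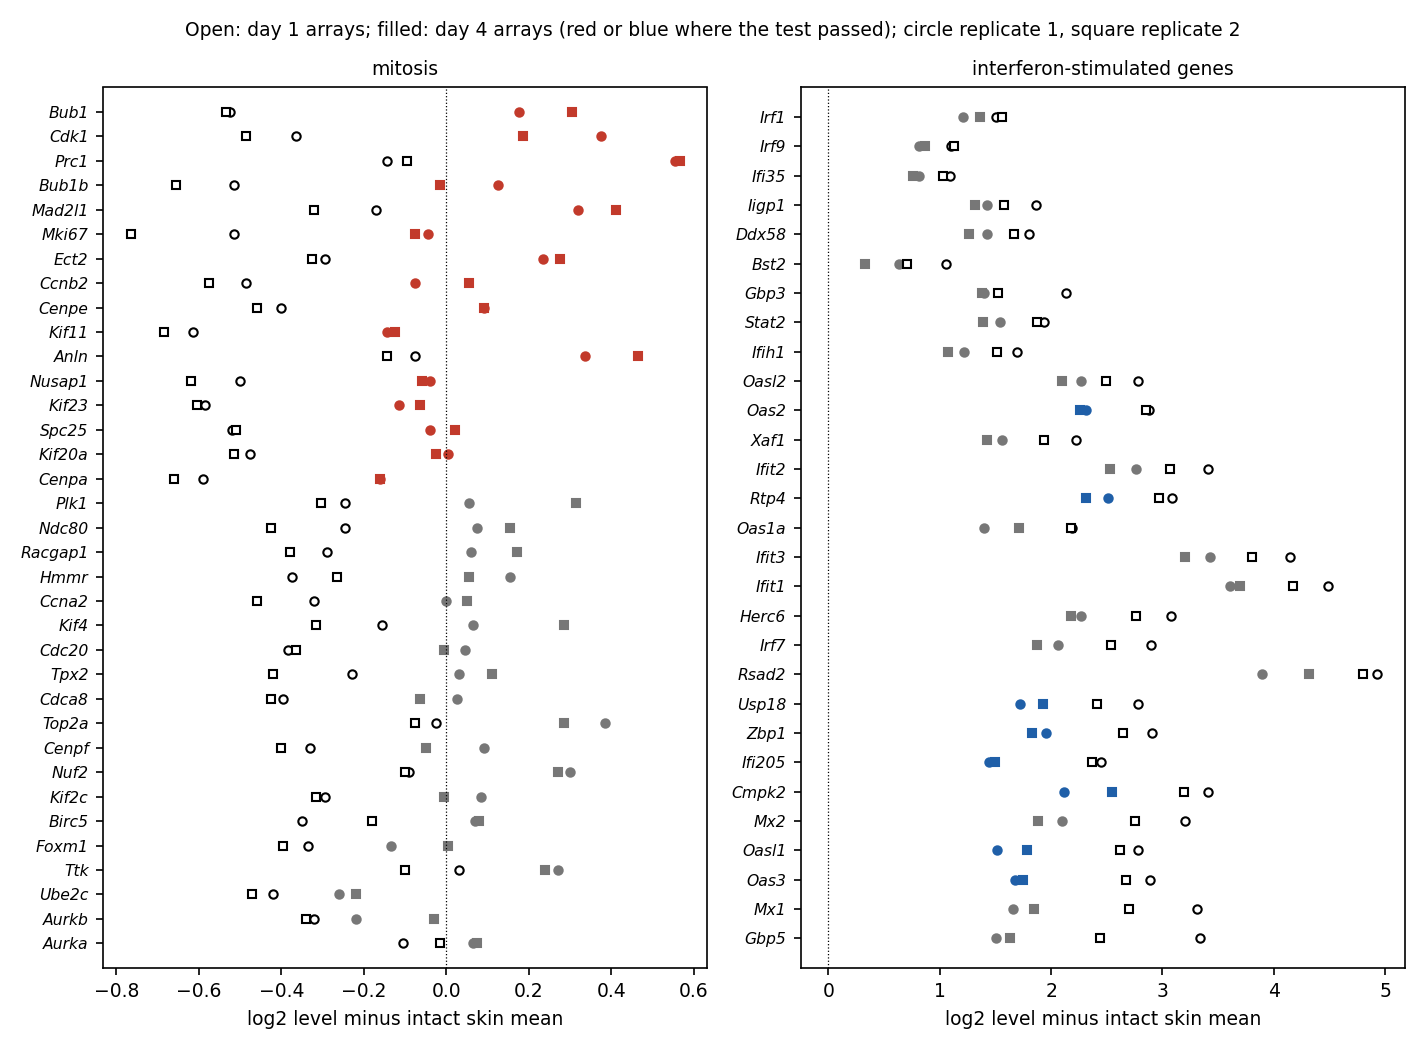
Log2 level minus the intact skin mean (horizontal axis) of each mitosis gene (left) and interferon-stimulated gene (right), with open symbols for day 1, filled symbols for day 4 (red or blue where the test passed), circles for replicate 1 and squares for replicate 2. All 35 mitosis genes have both day 4 arrays to the right of both day 1 arrays, and all 29 interferon-stimulated genes have them to the left.

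Late cell cycle genes are known for a cell cycle homology region, TTTGAA, near their start. On either strand it was found in 26 of 32 windows (81.2%) of the mitosis list, in 3 of 33 (9.09%) of the DNA replication list and in 17.9% of all windows, so these lists of division genes differ in their promoter letters. The sites of 4 mitosis genes that rose are shown for the element they share, in capitals, and for Kif11 it stands on the opposite strand.
Cdk1, chr10:69352966-69352995, minus strand: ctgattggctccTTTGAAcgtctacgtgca
Prc1, chr7:80294434-80294463, plus strand: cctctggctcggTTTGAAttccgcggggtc
Ect2, chr3:27153975-27154004, minus strand: ccgtttaccggaTTTGAAacacactcacaa
Kif11, chr19:37376351-37376380, plus strand: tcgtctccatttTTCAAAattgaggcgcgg
Each of these genes had both day 4 arrays above both day 1 arrays, as did all 35 mitosis genes, with or without the element. It also stood before the mitosis genes Ube2c, Kif2c, Cdc20 and Top2a, which did not pass.

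Of 25 collagen chain genes 3 rose, none fell and 22 did not pass, and 21 had day 4 wholly above day 1 (median 0.265). Over all genes 1.09% rose and 25.6% had day 4 wholly above day 1. Col14a1, a fibril-associated collagen, had 8.48 and 8.35 on day 1, 9.44 and 9.54 on day 4, and 8.53 and 8.55 in intact skin. Day 4 stood apart from the other groups, which were alike (2.11-fold over day 1, adjusted p = 0.0105). The fibril-nucleating chains Col5a2 (1.48-fold) and Col5a1 (1.43-fold) also rose. The main fibril collagens did not pass. Col1a1 had 11.44 and 12.05 on day 1 and 12.27 and 12.19 on day 4, where the wide day 1 pair gave an SE of 0.20 (difference 0.48, adjusted p = 0.264), and Col3a1 differed by 0.48 as well (adjusted p = 0.15).

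Of 38 provisional matrix and matricellular genes 4 rose and 1 fell (median 0.15), where 1.09% of all genes rose and 1.14% fell. Cthrc1, a secreted protein of activated fibroblasts, had 8.06 and 8.05 on day 1, 9.62 and 9.67 on day 4, and 7.85 on both intact arrays. The pairs were close together and the groups far apart, and the 3.01-fold rise (SE 0.07 on the log2 scale) had the lowest adjusted p of all genes, 0.00437. Tenascin gene Tnn (2.00-fold) and the small leucine-rich proteoglycan genes Ogn (2.00-fold, but adjusted p = 0.0517 after cyclic loess) and Aspn (1.74-fold) rose as well. Thbs1, thrombospondin 1, an early component of the clot matrix, fell from 12.31 and 12.29 to 11.35 and 11.39, close to 11.31 and 11.60 in intact skin (1.91-fold, adjusted p = 0.0223). Tenascin C (Tnc, −0.10), periostin (Postn, 0.27) and fibronectin (Fn1, 0.38) did not pass. Among 22 collagen processing genes the lysyl hydroxylase gene Plod2 (1.66-fold) and Pcolce2 (1.60-fold) rose, and among 17 basement membrane genes the laminin chain gene Lama2 rose (1.44-fold).

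The second largest rise of all genes was Sfrp2, a secreted modulator of Wnt signalling. It had 7.54 and 7.80 on day 1, 10.37 and 10.63 on day 4, and 7.06 and 7.65 in intact skin. The difference was 2.83 for either replicate number, a 7.11-fold rise (SE 0.21, adjusted p = 0.00901). Wnt5a was the other of 36 Wnt pathway genes that rose (1.68-fold, adjusted p = 0.0496), from 6.99 and 7.11 to 7.98 and 7.62, which stayed below the intact 9.11 and 8.95. Wnt5a did not pass under any of the 3 scalings (adjusted p = 0.0614 to 0.0708). Lrrc17, a secreted leucine-rich repeat protein, had 7.42 and 7.07 on day 1, 9.56 and 9.76 on day 4, and 7.53 and 7.69 in intact skin (5.33-fold, adjusted p = 0.00485). As with Sfrp2, day 4 stood alone. The secreted factor gene Angptl1 (2.63-fold) and the lipid transporter gene Abca9 (2.45-fold) followed.

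Of 21 fibroblast markers Dpp4 (1.85-fold) and Cd34 (1.45-fold) rose and 19 did not pass, where 1.09% of all genes rose and 1.14% fell. Of 26 smooth muscle, pericyte and myofibroblast genes the collagen-binding integrin gene Itga11 (1.74-fold) and the myosin light chain gene Myl9 (1.46-fold) rose. Acta2, smooth muscle actin and the usual mark of myofibroblasts, had 10.68 and 10.73 on day 1 and 11.01 and 11.00 on day 4 and did not pass (0.30, adjusted p = 0.112). The CArG box, the binding motif of serum response factor, was found in 2 of 22 windows of this list (9.09%, Myl9 and Cnn2) and in 1.63% of all windows. Among 34 genes of matrix proteases, the plasminogen system and their inhibitors, Adamts4 (2.35-fold), Adamts9 (2.02-fold), Adamts1 (1.53-fold) and the inhibitor gene Timp4 (1.36-fold) fell, and Adamts12 rose 1.56-fold. Mmp13, Timp1 and Plaur had negative differences (−0.83, −0.93 and −0.68) that did not pass. With the wound arrays alone, Cthrc1, Sfrp2 and Lrrc17 were the matrix and Wnt genes described here that passed.

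**Figure D4:**
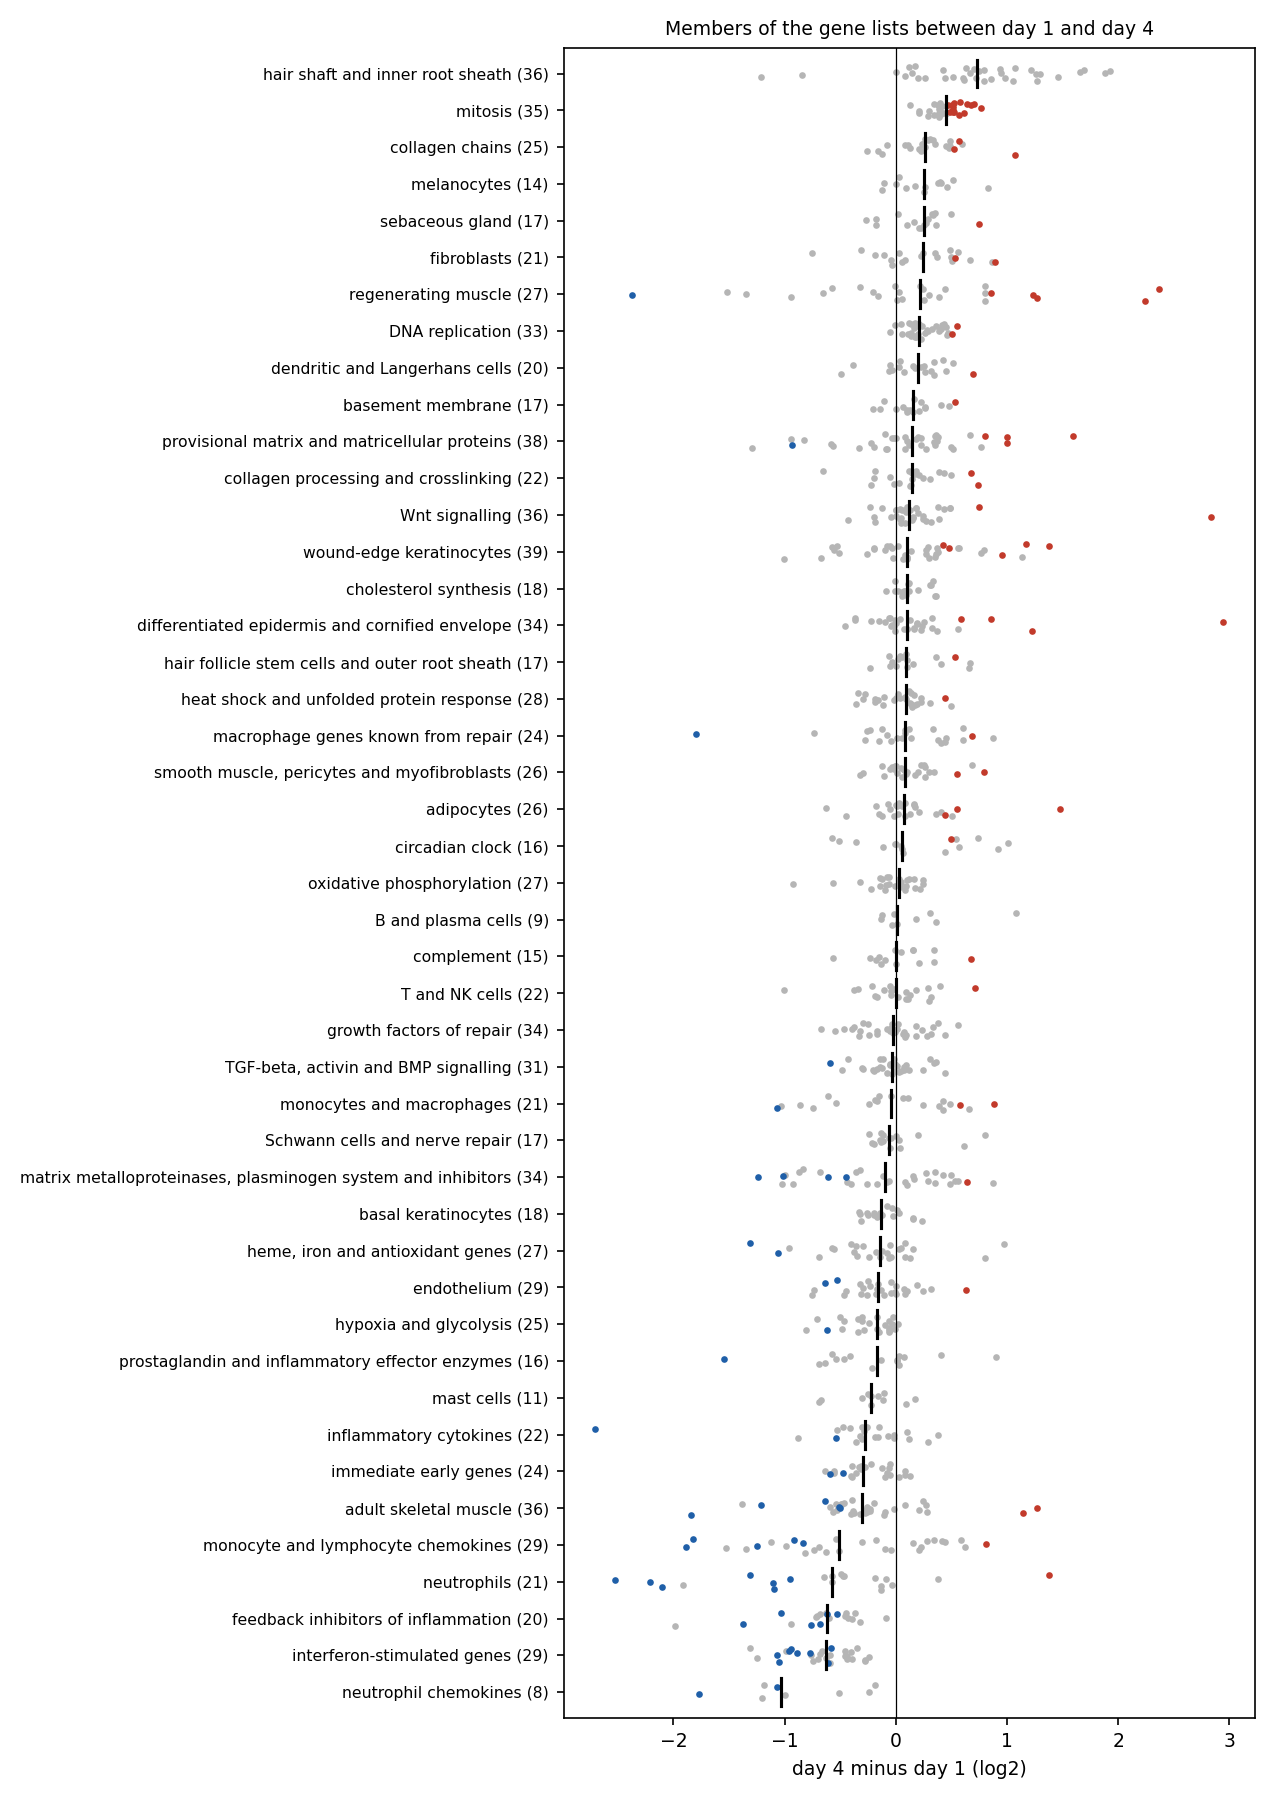
Day 4 minus day 1 log2 difference (horizontal axis) of the measured members of 45 gene lists, ordered by list median (black bar), with members called higher in red, called lower in blue and the rest in grey; the number measured stands in brackets. Neutrophil chemokines have the lowest median (−1.03), interferon-stimulated genes follow (−0.63), and mitosis genes (0.45) lie second from the top under hair genes (0.73), of which none was called.

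Of 34 genes of epidermal differentiation and the cornified envelope 4 rose, none fell and 30 did not pass, where 1.09% of all genes rose. The median difference of 0.10 was −0.005 for replicate 1 and 0.18 for replicate 2. Rptn, repetin, a precursor of the cornified envelope, showed the largest rise of all genes. It had 7.07 and 6.44 on day 1, 9.80 and 9.60 on day 4, and 7.97 and 8.14 in intact skin, so day 1 was lowest and day 4 highest (7.70-fold, log2 difference 2.94, SE 0.20, adjusted p = 0.00816). The protease gene Casp14, active in cornification, rose 2.34-fold, from 10.09 and 9.73 to 11.02 and 11.25, above the intact 9.85 and 9.67. The transglutaminase gene Tgm3 rose 1.81-fold but stayed below intact skin, and Calm4 rose 1.51-fold. These were the 4 rises. Loricrin (Lor, 0.10) and Krt10 (−0.01) did not pass.

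Of 39 wound-edge keratinocyte genes 5 rose, none fell and 34 did not pass (median 0.105), with 18 wholly higher and 11 wholly lower on day 4. Over all genes 1.09% rose, 25.6% lay wholly higher and 22% wholly lower. Sprr2b, a small proline-rich envelope protein, rose 2.25-fold, from 6.98 and 6.76 to 7.96 and 8.12, against 5.39 and 5.31 in intact skin. Krt16, a keratin of stressed and healing epidermis, stood at 11.07 and 11.03 on day 1 and 11.48 and 11.46 on day 4, far above the intact 7.66 and 7.70 (1.34-fold over day 1, adjusted p = 0.0436). Stfa3, Serpinb3a (1.94-fold, under the lower quartile on all 4 wound arrays) and the connexin gene Gjb6 (1.39-fold) made up the 5. Krt6a (0.08) and Krt17 (0.10) had overlapping groups. Tmprss11b, a membrane-bound serine protease of squamous epithelia outside the lists, rose 4.56-fold, from 4.94 and 4.58 to 7.04 and 6.86, with 4.47 and 4.52 in intact skin (adjusted p = 0.00485). None of the 18 basal keratinocyte genes passed. Krt14 (0.23) and the integrin gene Itgb4 (−0.20) had differences in opposite directions.

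Of 27 genes of regenerating muscle 5 rose, 1 fell and 21 did not pass, with 11 wholly higher and 9 wholly lower on day 4. Their median difference of 0.22 was −0.07 for replicate 1 and 0.34 for replicate 2. Over all genes 1.09% rose, 1.14% fell, 25.6% lay wholly higher and 22% wholly lower on day 4. Of 36 adult skeletal muscle genes 5 fell, 2 rose and 29 did not pass, and the median of −0.30 was −0.45 for replicate 1 and −0.15 for replicate 2. Myh3, the embryonic myosin heavy chain, had 5.22 and 5.34 on day 1, 7.35 and 7.95 on day 4, and 5.23 and 5.41 in intact skin. Day 1 was at the intact level and day 4 was higher on both arrays (5.17-fold, adjusted p = 0.0115). Actc1, cardiac actin, which immature muscle fibres express, had 7.47 and 7.55, then 9.53 and 9.98, with 7.36 and 7.13 in intact skin (4.74-fold, adjusted p = 0.00816). Mymk, the membrane protein that fuses myoblasts, rose 2.35-fold, the embryonic light chain Myl4 2.40-fold and the fetal acetylcholine receptor subunit Chrng 1.81-fold. The myogenic regulators Myod1 (0.24) and Myog (0.06) had overlapping groups.

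The slow and cardiac troponin genes Tnni1 (2.41-fold) and Tnnc1 (2.21-fold) were the rises among the adult genes. Among the falls, Pvalb, the calcium buffer of fast fibres, went from 10.77 and 10.92 to 9.44 and 9.83, against 9.85 and 9.73 in intact skin (2.31-fold, adjusted p = 0.0223). Mybpc2 fell 1.55-fold, Myh4 1.43-fold and Myoz1 1.42-fold. Myh4 still lay above intact skin on day 4, at 10.78 and 10.70 against 9.82 and 10.00, and its day 1 values of 11.28 and 11.23 were highest. It did not pass after quantile normalization (adjusted p = 0.0518). Creatine kinase Ckm (−0.38, adjusted p = 0.0686) and actin Acta1 (−0.40, adjusted p = 0.121) did not pass.

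Ankrd1, Xirp1, Rrad and Hspb7, all expressed in striated muscle, fell more than 3-fold. Ankrd1 is the fall of the regenerating list and Xirp1 the fifth fall of the adult list, while Rrad and Hspb7 stand outside the lists. Ankrd1, a stretch-responsive repressor, went from 9.93 and 10.35 to 7.20 and 8.34, with 5.54 and 5.83 in intact skin (5.17-fold, adjusted p = 0.0361). Xirp1, an actin-binding protein of damaged fibres, went from 9.41 and 9.14 to 7.35 and 7.52, at the intact level of 7.39 and 7.70 (3.58-fold, adjusted p = 0.0105). Rrad, a small GTPase induced in injured muscle, fell 6.04-fold, from 9.77 and 10.52 to 7.21 and 7.89 (adjusted p = 0.0223), and the small heat shock protein gene Hspb7 fell 3.73-fold, from 10.74 and 10.79 to 8.43 and 9.30 (adjusted p = 0.0471). With a robust prior Ankrd1 (adjusted p = 0.0627) and Hspb7 (0.0727) did not pass. Day 4 replicate 2 was higher than replicate 1 for all 4. Without day 4 replicate 2 the median of the regenerating list was −0.095 and that of the adult list −0.473, and without day 4 replicate 1 the adult median was −0.165. With the wound arrays alone, Actc1 (higher) and Xirp1 (lower) were the muscle genes described here that passed.

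Hair genes had the highest list median and no calls, and the arrays of a wound group were far apart. Among 36 hair follicle structural genes (shaft and inner root sheath) 34 had overlapping groups, with a median of 0.73 that was 0.97 for replicate 1 and 0.185 for replicate 2. Krt71, a keratin of the inner root sheath, had 11.56 and 6.41 on day 1, 12.51 and 7.34 on day 4, and 13.11 and 13.13 in intact skin. Replicate 1 was far above replicate 2 on both days, while the intact arrays were alike. Krt72 had 7.44 and 6.09 on day 1 and 11.14 and 6.25 on day 4. Replicate 1 exceeded replicate 2 in 36 of the 36 genes on day 1 and in 34 on day 4, by medians of 1.91 and 3.565, against −0.02 in intact skin. The list median was −0.135 without day 1 replicate 2 and −0.648 without day 4 replicate 1, while without day 4 replicate 2 it was 2.77 and 3 genes passed, so no direction can be given for hair genes.

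Over all genes, 90 were at least 2-fold higher in replicate 1 than in replicate 2 on both days, of which 53 were keratin or keratin-associated genes, and 1 was so in the other direction. None of these was among the 444 called genes. A gap of that size between replicates widens the SE, so few could have been called, and their absence says nothing about the called genes. The share of hair follicle tissue in each biopsy is not given, and its part in the other results was not tested.

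**Figure D5:**
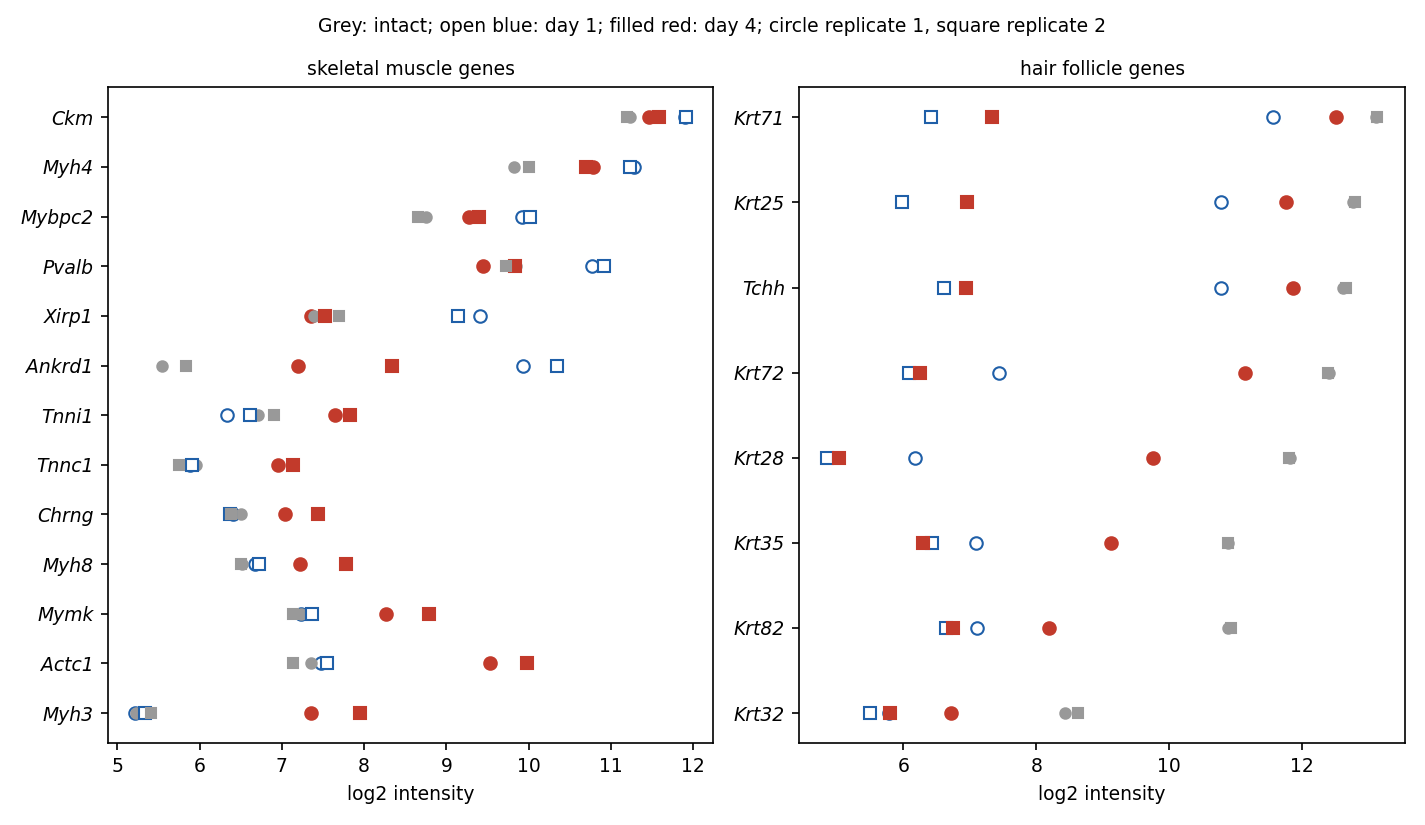
Log2 intensity (horizontal axis) of 13 skeletal muscle genes (left) and 8 hair follicle genes (right) on each array, in grey for intact skin, open blue for day 1 and red for day 4, with circles for replicate 1 and squares for replicate 2. Myh3, Actc1 and Mymk are highest on both day 4 arrays, Xirp1 and Ankrd1 on both day 1 arrays, and in Krt71 the replicate 1 wounds (11.56 and 12.51) lie far above the replicate 2 wounds (6.41 and 7.34).

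Other cell types gave few calls, where 1.09% of all genes rose and 1.14% fell. Counts this small say little about a cell type. Among 29 endothelial genes the adhesion molecules Icam1 (1.55-fold) and Sele (1.44-fold) fell and Vcam1 rose 1.55-fold, from 7.54 and 7.65 to 8.13 and 8.32 (adjusted p = 0.0454), while the pan-endothelial markers Pecam1 (−0.13) and Cdh5 (−0.32) did not pass. Of 22 T and NK cell genes Cd4 rose 1.64-fold, from 6.14 and 6.28 to 7.03 and 6.81, while Cd3e (−0.34) and Cd3g (−0.18) did not pass. Of 20 dendritic and Langerhans cell genes Fscn1, an actin-bundling protein of mature dendritic cells, rose 1.61-fold. The antigen presentation genes H2-Eb1 (0.51) and H2-Aa (0.46) were higher on both arrays and did not pass. Complement C6 rose 1.60-fold, the single call among the 15 genes of the complement list, in which C1qa and C1qc do not stand.

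Thrsp, a regulator of fatty acid synthesis, rose 2.78-fold, from 7.03 and 6.94 to 8.43 and 8.49, below the intact 9.15 and 8.81 (adjusted p = 0.0115), and with Lpl (1.46-fold) and Cebpa (1.36-fold) made up the 3 rises among 26 adipocyte genes. Adipoq and Plin1, which define adipocytes, had overlapping groups (0.09 and 0.01). Of 17 sebaceous gland genes the elongase gene Elovl3 rose, by 1.68-fold. None of 34 growth factors of repair, 11 mast cell, 9 B and plasma cell, 14 melanocyte, 17 Schwann cell, 27 oxidative phosphorylation or 18 cholesterol synthesis genes passed. Of all genes 2.23% passed, and at that share a list of such size can hold no call without differing from other genes. Among 28 heat shock and unfolded protein genes Hspa1a rose (1.36-fold), a call lost after cyclic loess (adjusted p = 0.0523) and median centring (0.0509). Among 31 genes of TGF-beta, activin and BMP signalling only Smad3 passed, falling 1.51-fold, and Tgfb1 differed by 0.09. The circadian genes Per3 (1.00), Dbp (0.92) and Per2 (0.56) were higher on both day 4 arrays and did not pass, Bhlhe41 rose 1.41-fold (adjusted p = 0.0467), and the hour of sampling is not given. The Bhlhe41 call was lost under all 3 scalings (adjusted p = 0.0514 to 0.0604).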

How the data were processed

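Total RNA of skin biopsies from 6 samples (2 intact, 2 day 1 wounds, 2 day 4 wounds) was measured on Affymetrix gene arrays for the mouse. Per the submitters' processing notes the authors summarised probe sets by RMA (version: not given in the sources used here). Their deposited table holds log2 values with 2 decimals. RMA brings the arrays to a common distribution, so a shift shared by most genes would not show. Arrays have no read depth, and their number limits the precision.

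Of 35556 probe sets 21789 had a single symbol and were used, while 1621 with several symbols and 12146 without an entry in the annotation were not used. The probe set with the highest mean over the 6 arrays stood for each of 19938 genes. For 18 called genes with further probe sets, 0 of these had an opposite sign.

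The groups were fitted with limma 3.58.1 (R 4.3.3), which estimated a mean for every group (lmFit, eBayes, 3 residual and 3.4 prior degrees of freedom), for the contrast day 4 minus day 1. The fit was also run on simulated data in which all arrays varied independently and with equal spread. Wound arrays of the same number shared deviations, so that run does not show how the test behaves on these arrays. Two-sided p-values were adjusted by Benjamini-Hochberg over all genes. The 45 gene lists held 1122 genes. Of these 1047 were found on the array, 4 of them through an older name, and 47 stood in more than 1 list. Members, lists and comparisons were chosen with earlier results of these data known. The text names the 15 largest rises and falls that passed, leaving out provisional names, for each list up to 5 members ranked by p whether or not they passed, defining members, and members that passed against their list; other genes were named after their values were seen. Lists are described by counts and medians with no set test. Promoter windows and miRNA sequences came from RefSeq (GRCm38.p6). Alternatives were 3 scalings, 2 priors, the wound arrays alone, a filter on the dimmest 30%, the mean of probe sets, a block for the replicate number and leaving out each array.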

Additional observations from a re-analysis of the deposited data

How the results depend on the processing

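Rises numbered 217 and falls 227 as reported. With only the 4 wound arrays they numbered 8 and 9, and with 1 array left out they ranged from 4 to 67 and from 5 to 117. These fits have fewer arrays, and the cause of the differences between arrays was not tested. With the replicate number as a block 235 genes rose and 348 fell, and 392 of the 444 calls were kept. Among the named genes, Bhlhe41, C1qc, Ccl5, Hspa1a, Krt16, Myh4 and Vcam1 did not pass with the block (adjusted p = 0.0506 to 0.0603). The labels do not say that a number pairs the samples, although deviations from the group means correlated at 0.685 between day 1 and day 4 wounds. With intact skin they correlated at 0.014 for day 1 and 0.023 for day 4. The block gives a number the same effect in every group, intact skin included, so it does not test a pairing of the wounds alone. Over all genes, day 1 and day 4 arrays correlated at 0.9895 for replicate 1 and 0.9905 for replicate 2. The 2 arrays of a day correlated at 0.9891 on day 1 and 0.9861 on day 4, so wound arrays were at least as alike by number as by day. With other scalings, priors, probe set rules or a dim filter, rises lay between 184 and 276 and falls between 228 and 310. Scaling moved the median of all genes by at most −0.03. Of the calls, 348 were kept under every alternative that left all 6 arrays in and all genes tested, and 7 under every omission of an array. Of 112 named genes that passed, no difference changed sign under any alternative run. Under the 3 scalings the medians of the complement, T and NK cell, B and plasma cell and oxidative phosphorylation lists, all within 0.03 of 0, changed sign in at least 1.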

Other observations

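The genes below stand outside the lists, and all but those named by rule were chosen after their values were seen. Akr1d1, a steroid reductase, rose 3.72-fold, from 4.50 and 4.59 to 6.16 and 6.72. Akr1c18, which inactivates progesterone, rose 3.32-fold, from 7.35 and 6.58 to 8.84 and 8.55, near the intact 8.70 and 8.86. Akr1c14 rose 2.43-fold and the glutathione transferase gene Gsta4 2.46-fold. For Akr1c18 day 1 lay below both day 4 and intact skin, whereas for Gsta4 day 1, at 8.25 and 8.20, was at the intact level of 8.27 and 8.02.

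In the imprinted Meg3 region on chromosome 12, the long non-coding RNA Meg3 went from 8.91 and 8.97 to 9.47 and 9.60, with 9.14 and 9.15 in intact skin (log2 difference 0.59, adjusted p = 0.0301 by limma). Rian, also a long non-coding RNA, went from 5.03 and 5.17, below the lower quartile, to 6.03 and 5.73 (0.78). The snoRNA DQ267102, which lies within Rian, went from 8.32 and 8.69 to 9.30 and 9.58 (0.94). Of 46 genes measured between Meg3 and Dio3, 5 rose and none fell, where 1.09% of all genes rose, and 43 differences were positive (median 0.14). Of its 40 miRNA genes 37 were positive and 21 had day 4 wholly above day 1, against 147 and 65 of all 291 miRNA genes measured. Genes of a region share transcripts and are not independent, and these probe sets see precursor or host RNA, not the mature miRNA.

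Of the 291 miRNA genes 2 rose, both of that region, and 2 fell. Mir377 had 3.98 and 4.08 on day 1 and 4.53 and 4.60 on day 4, and Mir382 had 4.46 and 4.58, then 4.96 and 5.13, all below the arrays' lower quartile. Mir146b went from 6.32 and 6.34 to 5.84 and 5.78, and Mir222 from 6.34 and 6.26 to 5.79 and 5.78. The mature sequences from RefSeq are shown with the seed, bases 2 to 8, in capitals, and no seed is shared among them.
miR-377-3p: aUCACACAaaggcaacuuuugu
miR-382-5p: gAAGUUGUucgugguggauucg
miR-146b-5p: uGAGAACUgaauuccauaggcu
miR-222-3p: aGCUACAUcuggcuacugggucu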
